A study of Rattus norvegicus with 12 samples.

Results

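The collagen genes are the 44 genes, of the 25620 with read counts, whose symbol is Col followed by a number, the letter a, and another number, so that each encodes a single collagen chain. All 44 were also among the 25524 genes with FPKM values (fragments per unit of gene length, scaled to the library). They were measured in wound tissue of male SD rats with streptozotocin-induced diabetes, a model in which each animal received a circular full-thickness wound of the dorsal skin. All 4 treatments shared the diabetes and the wound, namely saline as the control, *A. fulica* d-SMG (the lyophilized mucus gel of the snail *Achatina fulica*), s-GAG (the glycosaminoglycan purified from that mucus), and Alg (an alginate dressing), each sampled on day 3, 7, and 14. There was 1 library for each treatment and day, 12 in all, and the labels gave neither the number of animals behind a library nor whether tissue was pooled. A difference between treatments on a single day therefore had no replicate check. In such bulk tissue, fewer cells of a type and less RNA per cell cannot be told apart. The study named *Col7a1*, *Col2a1*, *Col4a4*, *Col17a1*, and *Col6a4* on these samples and measured *Col1a1* and *Col3a1* by qPCR, so that their values here are not independent of that choice.

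Collagens are triple-helical proteins assembled from chains wound around each other, and they form most of the fibrous matrix of skin. Types I, III, and V build the banded fibrils that fibroblasts lay down in granulation tissue, where type III precedes type I, and FACIT collagens (fibril-associated collagens with interrupted triple helices) decorate the fibril surface. Type IV forms the sheet of the basement membrane, type VI a beaded network around cells, and types VII and XVII fasten the epidermis to the dermis. Chains of a heterotrimer such as type I or type IV are made in fixed proportions in the protein, while their genes lie on the same or on different chromosomes.

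The 6 type IV genes lie as 3 divergent pairs, and the windows that RefSeq gives around the gene starts in the rat assembly GRCr8 show this arrangement. *Col4a2* (minus strand) and *Col4a1* (plus strand) start on chromosome 16 with 76 bases between them, *Col4a4* and *Col4a3* on chromosome 9 with 412 bases between them, and *Col4a6* and *Col4a5* on chromosome X with 1414 bases between them. RefSeq windows of 250 bases before to 50 bases after a start were matched for 35 of the 44 genes (38 windows). The FPKM ratio of *Col4a1* to *Col4a2* was 1.97 to 2.96 in the 12 libraries. It was 0.338 to 0.899 for *Col4a3* to *Col4a4* and 2.44 to 46 for *Col4a5* to *Col4a6*, the 46 resting on 4 reads of *Col4a6*. The sequences below are the whole interval shared by *Col4a1* and *Col4a2*, and a stretch upstream of *Col1a2* and of *Col17a1*. *Col1a2* is a type I chain of fibroblasts and *Col17a1* a transmembrane collagen of keratinocytes. Each stretch begins 250 bases before the start and ends at position -141 from it for *Col1a2* and -101 for *Col17a1*. The marked matches in these stretches therefore lie upstream of those positions. *Col1a2* and *Col17a1* are single examples from the fibrillar and the epidermal genes described below. On either strand in the 250 bases before a start, TATAAA was present in 4 of the 35 genes. These were *Col10a1*, *Col13a1*, *Col17a1*, and *Col1a2*, so the examples do not stand for their groups in this motif. Capitals mark CCGCCC in the first sequence, ATTGG and then TATAAA in the second, and TATAAA at 2 positions in the third. The capitals of the first and the earlier capitals of the second are GGGCGG and, respectively, CCAAT on the opposite strand.
Col4a2-Col4a1, chr16:84885521-84885596, plus strand: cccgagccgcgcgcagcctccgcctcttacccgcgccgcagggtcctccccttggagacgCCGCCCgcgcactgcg
Col1a2, chr4:33518307-33518416, plus strand: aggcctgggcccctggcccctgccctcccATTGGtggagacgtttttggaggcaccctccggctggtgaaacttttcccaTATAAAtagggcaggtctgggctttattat
Col17a1, chr1:256518958-256519107, minus strand: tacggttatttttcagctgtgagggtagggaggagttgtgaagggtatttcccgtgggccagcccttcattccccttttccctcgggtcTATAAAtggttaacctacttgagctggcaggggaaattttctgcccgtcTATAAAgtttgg
In the 250 bases before the start, on either strand, CCAAT was present in 31.6% of the collagen windows and 34.0% of all 33469 windows, TATAAA in 10.5% and 12.9%, and GGGCGG in 52.6% and 30.5%. The searched motifs do not contain each other, and a match may still overlap another by a few bases. A match is a description of the letters and not of a bound factor.

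The libraries held 13748887 to 38302461 reads on genes. Levels across libraries are given as CPM (read counts scaled to a common library size, with TMM), and ratios as log2 of CPM with exact 95% intervals that cover counting error only. The tissue was labelled as skin. The 18 skeletal muscle markers (*Acta1*, *Ckm*, and others) summed to 8466 to 286691 CPM, and the 12 keratinocyte markers found of 15 listed to 52.2 to 42103 CPM. Among the 12, 2 libraries stood apart. The library labelled d-SMG day 3 held the most skeletal muscle (286691 CPM) and the least keratinocyte RNA (52.2 CPM against 5061 to 42103 elsewhere), with none of the found keratinocyte markers at 0. The library labelled s-GAG day 14 had an FPKM sum of 653222 against 380244 to 480767 elsewhere and unusual ratios between collagen chains, given at the end. The comparisons over libraries were also made without these libraries.

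Collagen genes took 1.22, 7.51, and 4.29% of all reads in the control on day 3, 7, and 14. The shares were 0.891, 5.87, and 2.88% in d-SMG, 3.48, 1.64, and 0.971% in s-GAG, and 1.97, 1.91, and 3.03% in Alg. The control and d-SMG thus peaked on day 7, s-GAG was highest on day 3, and Alg on day 14. Of the 42 collagen genes with enough reads for a test, 24 had their highest level of the 12 libraries in control day 7, where 11.8% of all genes tested had theirs. The lowest level lay in s-GAG day 14 for 20 collagen genes (28.8% of all genes) and in d-SMG day 3 for 14 (17.6% of all genes). *Col9a1* had at most 2 reads in a library and *Col10a1* a single read in the whole series, in Alg day 3, and neither was tested.

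**Figure D1:**
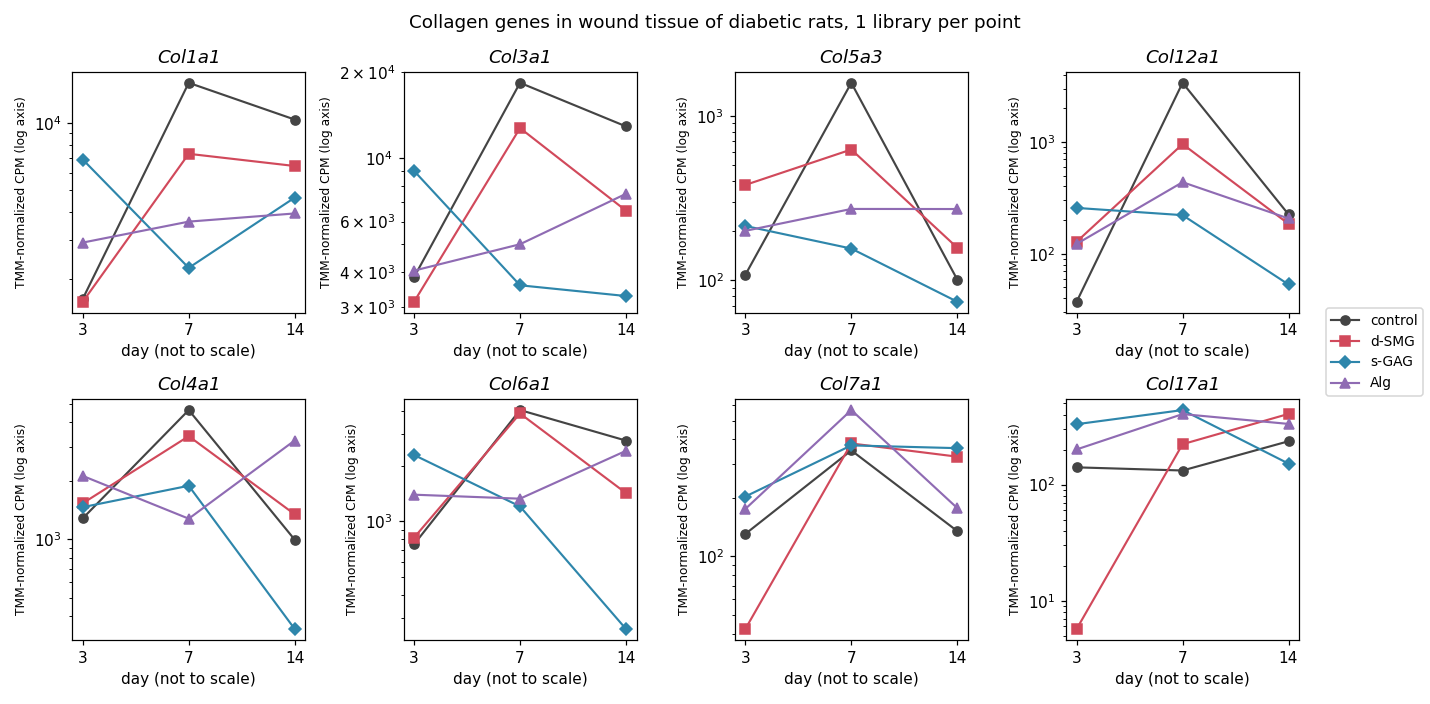
Level of selected collagen genes (TMM-scaled CPM, log axis) on day 3, 7, and 14, with 1 point for each library and a line for each treatment; there are no replicates and therefore no error bars. *Col1a1* reached 15162 CPM in control day 7, and *Col17a1* was at 5.71 CPM in d-SMG day 3.

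Per gene length, *Col3a1*, *Col1a1*, and *Col1a2* were the most abundant collagens, with mean FPKM over the 12 libraries of 1503, 899.8, and 655. These 3 chains of types I and III made up 57.6, 61.3, and 72.8% of the collagen FPKM in the control on day 3, 7, and 14, 51.2, 56.5, and 68.4% in d-SMG, 65.7, 48.3, and 74.5% in s-GAG, and 51.7, 57.6, and 54.4% in Alg. The share was thus higher on day 14 than on day 3 in each of the 4 treatments, and it was lowest on day 7 in s-GAG. In Alg the day 14 share was below that of day 7 (54.4 and 57.6%). The s-GAG day 14 share comes from the library that stood apart. Type IV made up 2.94% of the collagen FPKM in both control day 14 and s-GAG day 14, and its largest share was in d-SMG day 3 with 15.3%.

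**Figure D2:**
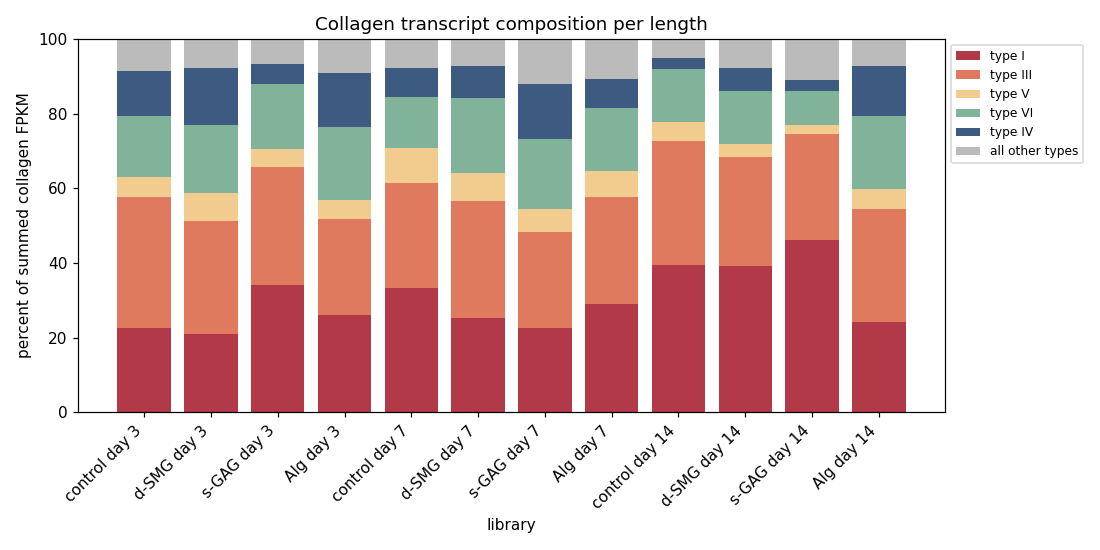
Share of each collagen type in the summed collagen FPKM (percent, stacked bars from 0 to 100) in the 12 libraries, 1 bar for each library. Types I and III together ranged from 48.3% in s-GAG day 7 to 74.5% in s-GAG day 14, the latter a library that stood apart.

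Whether a treatment differed from the control over the 3 days, or a day from another over the 4 treatments, was tested with the quasi-likelihood test of edgeR. Days or treatments serve as the replicates in this test. A treatment effect present on a single day therefore adds to the error. The 3 treatment comparisons share the control libraries. None of the 42 collagen genes had an adjusted p under 0.05 in any of the 6 comparisons, and neither did any of the 16110 genes tested (0% called in each). At an unadjusted p under 0.05 there were 2 collagen genes for d-SMG (1.35% of all genes), 3 for s-GAG (9.26%), and 1 for Alg (3.12%). There were 4 for day 7 against day 3 (1.81% of all genes), 2 for day 14 against day 3 (4.95%), and 5 for day 14 against day 7 (3.12%). By limma on log2 FPKM no collagen gene was called, while DESeq2 called *Col9a3* for s-GAG (288 genes in all) and *Col24a1* for day 14 against day 7 (7 genes in all), and no collagen gene in the other 4 comparisons. Treatment and control libraries did not overlap for 0 of the 42 genes in d-SMG (3.46% of all genes), 4 in s-GAG (17.3%), and 3 in Alg (10.3%). These were *Col9a3*, *Col11a2*, and *Col13a1* (higher in both s-GAG and Alg) and *Col6a4* (lower in s-GAG). In the same comparisons all 13 hair follicle markers had a higher estimate than the control, with medians of 5.91 in s-GAG and 4.56 in Alg (log2, 13 at an unadjusted p under 0.05 in each). They summed to 43.4 to 2653 CPM in the control, 6251 to 10631 in s-GAG, and 487 to 42569.8 in Alg, with none at 0 there. In d-SMG all 13 also had a higher estimate, with a median of 2.88 (log2, 6 at an unadjusted p under 0.05). Their sums in d-SMG were 27.2 to 4488 CPM, with 2 markers at 0 on day 3. The 7 macrophage markers had medians of -1.40 in s-GAG, -0.70 in Alg, and -0.27 in d-SMG (log2). They summed to 2017 to 3279.6 CPM in the control, 429 to 1511 in s-GAG, and 786 to 2568 in Alg. In d-SMG they summed to 1265 to 3707 CPM, and none was at 0 in any library. None of these markers was called, and their part in the collagen values was not tested. Day 14 and day 3 did not overlap for 1 gene, *Col11a1* (1.6% of all genes). The median log2 difference of the 42 genes from the control was -0.43 in d-SMG, -0.68 in s-GAG, and -0.38 in Alg, beside -0.03, 0.00, and -0.03 over all genes tested.

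The genes behind those unadjusted values were named after their values were seen. For d-SMG they were *Col9a2* and *Col25a1*, for s-GAG *Col9a3*, *Col6a4*, and *Col24a1*, and for Alg *Col9a3*. They were *Col7a1*, *Col25a1*, *Col12a1*, and *Col16a1* for day 7 against day 3, *Col24a1* and *Col13a1* for day 14 against day 3, and *Col24a1*, *Col27a1*, *Col11a1*, *Col12a1*, and *Col5a3* for day 14 against day 7. The edgeR log2 differences not given below were -1.79 ± 0.69 (SE, adjusted p = 0.51) for *Col24a1* in s-GAG, 1.53 ± 0.57 (SE, adjusted p = 0.999) for *Col25a1* on day 7 against day 3, -1.57 ± 0.61 (SE, adjusted p = 0.882) for *Col24a1* and 0.94 ± 0.40 (SE, adjusted p = 0.882) for *Col13a1* on day 14 against day 3, and -1.91 ± 0.76 (SE, adjusted p = 0.904) for *Col5a3* on day 14 against day 7. *Col9a3*, a chain of the FACIT type IX, was at 4.2, 2.18 and 4.3 CPM in the control, 1.69, 5.75 and 10.3 in d-SMG, 16.3, 10.3 and 14.9 in s-GAG, and 9.41, 8.34 and 18.6 in Alg on day 3, 7, and 14. Every s-GAG and Alg library was above every control library, while the d-SMG libraries overlapped the control. The edgeR log2 difference was 1.99 ± 0.52 (SE, adjusted p = 0.417) for s-GAG and 1.69 ± 0.52 (SE, adjusted p = 1) for Alg, higher in 3 of 3 days for both. Without d-SMG day 3, which enters the estimate of spread, *Col9a3* was called for s-GAG with a log2 difference of 1.98. *Col9a2*, another type IX chain, was at 0.714, 6.35 and 5.57 CPM in the control, 0.161, 1.61 and 0.629 in d-SMG, 1.09, 0.979 and 2.05 in s-GAG, and 1.52, 1.69 and 1.49 in Alg. Here d-SMG was below the control on each day, with an edgeR log2 difference of -2.31 ± 0.74 (SE, adjusted p = 1). The counts behind *Col9a2* were small, between 2 and 114 reads in a library. *Col25a1*, a transmembrane collagen best known from neurons, had reads of 8, 46 and 39 in the control, 4, 15 and 7 in d-SMG, 10, 53 and 4 in s-GAG, and 16, 24 and 9 in Alg. After scaling, d-SMG was below the control on day 7 and 14 and nearly level with it on day 3, where 4 and 8 reads give no direction. The edgeR log2 difference was -1.71 ± 0.67 (SE, adjusted p = 1).

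**Figure D3:**
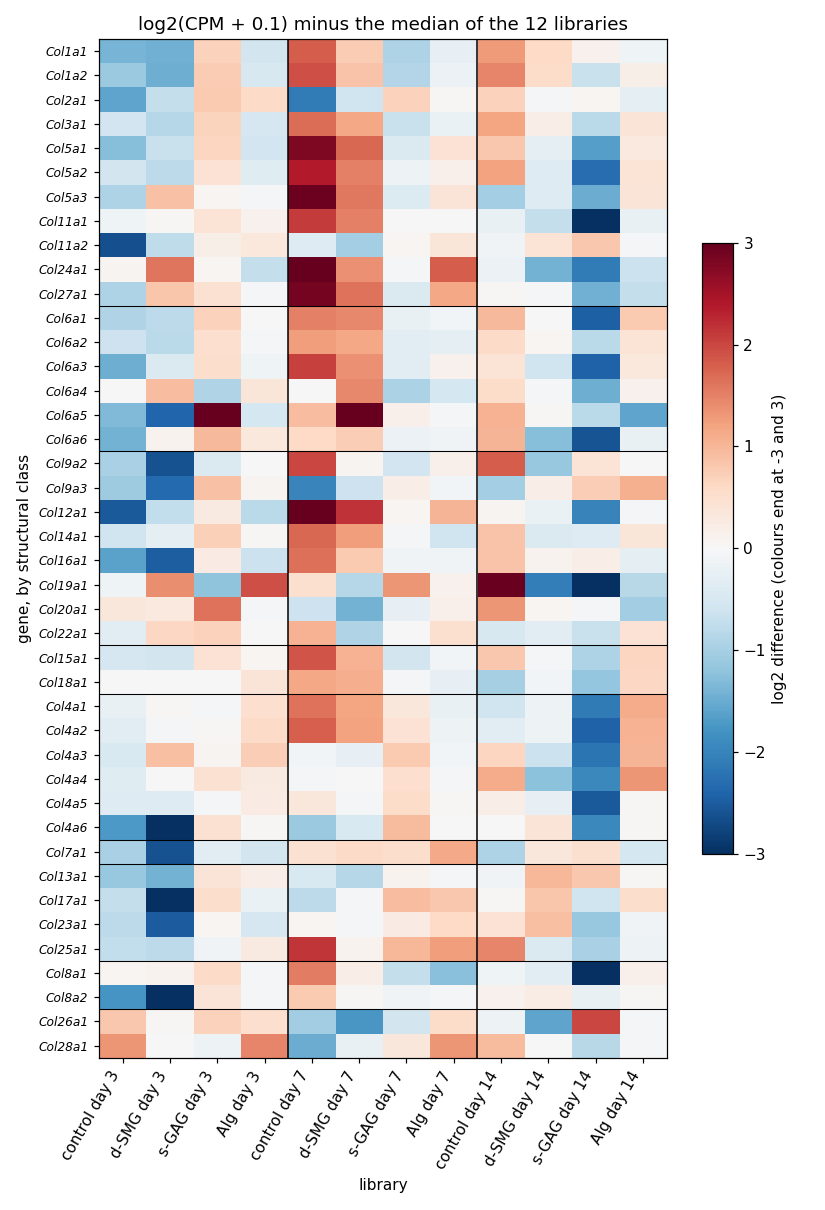
Log2 CPM of the collagen genes in the 12 libraries relative to the median of each gene over the libraries, grouped by structural class. The column of control day 7 holds the highest value of 24 of the 42 tested genes, and the columns of s-GAG day 14 and d-SMG day 3 the lowest of 20 and 14.

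The fibrillar collagens, which form the load-bearing fibrils of the dermis, held the 3 most abundant collagen genes. *Col1a1*, a chain of type I collagen, was at 1634, 15162 and 10379 CPM in the control, 1584, 7287 and 6426 in d-SMG, 6868, 2246 and 4636 in s-GAG, and 2916, 3619.9 and 3938 in Alg on day 3, 7, and 14. s-GAG was the highest treatment on day 3 and the lowest on day 7, the control was the highest on day 7 and 14, and d-SMG lay close to the control on day 3 and below it afterwards. *Col1a2*, the other type I chain, followed the same order on day 3 and 7, at 1049.7, 8661 and 6295 CPM in the control, 817, 4089 and 3296 in d-SMG, 3832, 1239.6 and 1433 in s-GAG, and 1615, 1991 and 2581 in Alg. *Col3a1*, the chain of the type III homotrimer of early granulation tissue, was at 3833, 18386 and 12938 CPM in the control, 3144, 12761 and 6555 in d-SMG, 9032, 3589 and 3291 in s-GAG, and 4039.5, 4998 and 7506 in Alg. Against the control of the same day, the log2 ratios of *Col1a1* were -0.04, -1.06, and -0.69 in d-SMG, 2.07, -2.76, and -1.16 in s-GAG, and 0.84, -2.07, and -1.40 in Alg. For *Col3a1* they were -0.29, -0.53, and -0.98 in d-SMG, 1.24, -2.36, and -1.98 in s-GAG, and 0.08, -1.88, and -0.79 in Alg. Over the days the edgeR test gave -0.78 ± 0.78 (SE, adjusted p = 1) for *Col1a1* and -0.64 ± 0.72 (SE, adjusted p = 1) for *Col3a1* in d-SMG. Both genes were higher in d-SMG on 0 of 3 days, and the standard errors exceeded the differences. The study reported both genes as upregulated by qPCR in d-SMG at the latest of these days, and more collagen deposition by tissue staining. The direction in the libraries was the opposite on day 14, at log2 -0.69 for *Col1a1* and -0.98 for *Col3a1*. These ratios rest on 1 library for each treatment and on TMM scaling. The qPCR of the study used 3 samples in each group and β-actin as the reference, so the measures are unlike. The reason for the opposite directions was not tested.

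The type V chains, which set the fibril diameter, repeated the peak of the control on day 7. *Col5a1* ranged over 177 to 3859.6 CPM, *Col5a2* over 153 to 3862, and *Col5a3* over 74.2 to 1587, each with its highest value in control day 7 and its lowest in s-GAG day 14. On day 7 their log2 ratios to the control lay at -1.35 to -0.87 in d-SMG, -3.35 to -2.52 in s-GAG, and -2.55 to -2.23 in Alg. *Col5a3* departed from its partners on day 3 in d-SMG, where it was 3.51-fold higher than in the control (log2 1.81, 1.74 to 1.88). Over the days it was at 108, 1587 and 101 CPM in the control, 380.3, 624 and 158 in d-SMG, 214, 156 and 74.2 in s-GAG, and 200.1, 272 and 271 in Alg. On day 14 it was higher than in the control in d-SMG and Alg (log2 0.64 and 1.42), whereas *Col5a1* was lower (log2 -1.11 and -0.52).

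Of the minor fibrillar collagens, *Col24a1* was at 13, 100.2 and 10.9 CPM in the control, 37.6, 32 and 4.53 in d-SMG, 12.7, 11.8 and 2.8 in s-GAG, and 7.4, 43 and 7.77 in Alg. Each treatment was lower on day 14 than on day 7, without overlap between the days. The edgeR log2 difference of day 14 against day 7 was -2.68 ± 0.60 (SE, adjusted p = 0.904), lower in 4 of 4 treatments, and the days did not overlap for 1.58% of all genes. *Col11a1* and *Col27a1* were also lower on day 14 in each treatment, with edgeR log2 differences of -1.89 ± 0.60 (SE, adjusted p = 0.904) and -2.02 ± 0.59 (SE, adjusted p = 0.904), and *Col11a1* did not overlap either. Both are cartilage collagens that are also expressed at low level in other connective tissues. *Col11a1* ranged over 4.16 to 158 CPM and *Col27a1* over 12.5 to 251. *Col11a2*, the partner chain of *Col11a1*, was at 0.756, 3.96 and 4.83 CPM in the control, 3.06, 2.53 and 6.92 in d-SMG, 5.91, 5.49 and 9.2 in s-GAG, and 6.56, 6.71 and 4.97 in Alg. Its level in control day 3 was the lowest of the 12, so that every treatment was higher on that day, with log2 ratios of 2.02, 2.97, and 3.12 in d-SMG, s-GAG, and Alg. *Col2a1*, the main collagen of cartilage, had reads of 1, 0 and 12 in the control, 2, 4 and 5 in d-SMG, 11, 23 and 5 in s-GAG, and 11, 5 and 4 in Alg on day 3, 7, and 14, so that its ratios rest on few reads. The 6 cartilage markers found of 7 listed summed to 8.15 to 79.5 CPM.

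Markers of fibroblasts, the main source of fibrillar collagen, summed to 528 to 2063 CPM over the 7 listed genes, none of them at 0, with the lowest sums in s-GAG day 14 (528) and d-SMG day 3 (589) and the highest in Alg day 14 (2063), d-SMG day 7 (2057), and control day 7 (2009). *Dcn*, *Lum*, *Dpt*, and *Fap* of that list also stand in the lists of matrix and breakdown genes used here. The part of these cell type levels in the collagen differences was not tested.

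The type IV collagens of the basement membrane split into an abundant pair, *Col4a1* and *Col4a2*, and 4 scarce chains. *Col4a1* was at 1281, 4634 and 994 CPM in the control, 1532, 3399 and 1344 in d-SMG, 1463, 1886 and 344 in s-GAG, and 2119, 1275 and 3228 in Alg on day 3, 7, and 14. *Col4a2*, its head-to-head neighbour, was at 474, 2074 and 483 CPM in the control, 586, 1393 and 537 in d-SMG, 614, 817 and 111 in s-GAG, and 895, 539.6 and 1233 in Alg. Both peaked on day 7 in the control, d-SMG, and s-GAG, but on day 14 in Alg, where they were 3.25-fold and 2.55-fold higher than in the control (log2 1.70 and 1.35). The 8 endothelial markers summed to 610.5 CPM in Alg day 14 and 426 in control day 14, within 342 to 862 over the 12 libraries, and their part in this result was not tested. *Col4a4*, a chain of specialized basement membranes, was at 2.02, 2.59 and 5.86 CPM in the control, 2.65, 2.62 and 1.07 in d-SMG, 3.67, 3.76 and 0.614 in s-GAG, and 3.18, 2.58 and 6.77 in Alg, from 9 to 146 reads. On day 14 it was 5.48-fold lower than in the control in d-SMG (log2 -2.45, -3.28 to -1.71), and its partner *Col4a3* was 2.45-fold lower. *Col4a6*, a chain of the epithelial basement membrane, was at 1.43, 2.25 and 5.03 CPM in the control, 0.322, 3.59 and 6.55 in d-SMG, 6.88, 9.59 and 1.23 in s-GAG, and 5.09, 4.88 and 5.09 in Alg. Its low value in d-SMG day 3 rests on 4 reads. *Col4a3* and *Col4a5* ranged over 1.91 to 18.3 and 2.93 to 25.2 CPM. In s-GAG day 14 all 6 chains were at least 2-fold lower than in the control (30% of all genes, in a library that stood apart), with log2 ratios of -3.26 to -1.53. The lengths implied by the ratio of reads to FPKM were 1.26 kb for *Col4a4* and 8.96 kb for *Col4a3*, so that the FPKM of these partners rest on gene models of unlike length.

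Type VI collagen, which links cells to the surrounding fibrils, has 3 abundant chains. *Col6a1* was at 751, 4029 and 2750.1 CPM in the control, 817, 3860.0 and 1426 in d-SMG, 2296, 1206 and 260.4 in s-GAG, and 1397, 1329 and 2419 in Alg. *Col6a2*, its partner chain, was at 870.1, 3184 and 2000.3 CPM in the control, 760.0, 2991 and 1386 in d-SMG, 1903, 1050.5 and 764 in s-GAG, and 1284, 1107 and 1761 in Alg. *Col6a3*, the longest of the chains, was at 262, 3009 and 956 CPM in the control, 538, 1866 and 477 in d-SMG, 1041, 577 and 135 in s-GAG, and 663, 793 and 904 in Alg. On day 3 s-GAG was the highest treatment for each, and on day 7 the control was the highest with d-SMG next. The d-SMG ratios on day 7 were -0.69 to -0.06 (log2), closer to the control than those of s-GAG (-2.38 to -1.60) and Alg (-1.92 to -1.52). Scaled by library size, *Col6a1* in d-SMG was instead above the control on day 7 (log2 0.30), and the ratio of *Col6a2* (-0.09) is smaller than the shift of the median gene between the scalings. *Col6a5*, an additional type VI chain, was at 3.15, 15.2 and 16.6 CPM in the control, 1.45, 207 and 8.18 in d-SMG, 81.5, 8.84 and 4.5 in s-GAG, and 5.49, 7.79 and 2.61 in Alg. It stood out in d-SMG day 7, at 13.7-fold the control (log2 3.77, 3.58 to 3.98), and in s-GAG day 3, at 25.9-fold (log2 4.69), and was at most 16.6 CPM in the other 10 libraries. *Col6a4* was at 1.68, 1.71 and 2.54 CPM in the control, 3.3, 4.74 and 1.64 in d-SMG, 0.86, 0.825 and 0.545 in s-GAG, and 2.2, 1.15 and 1.86 in Alg, from 8 to 103 reads. Each s-GAG library was below each control library (edgeR log2 difference -1.43 ± 0.52 SE, adjusted p = 0.499), while d-SMG was higher on day 7 (log2 1.47) and overlapped the control. *Col6a6* ranged over 1.7 to 21.9 CPM, with its lowest value in s-GAG day 14.

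The collagens of the dermal-epidermal junction, unlike most fibrillar genes, were not highest in control day 7. *Col7a1*, which forms the anchoring fibrils below the epidermis, was at 130.4, 351 and 135 CPM in the control, 42.2, 381 and 326 in d-SMG, 203, 373 and 361 in s-GAG, and 175, 567 and 177 in Alg. Every treatment was higher on day 7 than on day 3, without overlap between the days. The edgeR log2 difference was 1.68 ± 0.49 (SE, adjusted p = 0.999), higher in 4 of 4 treatments, and 1.27 without d-SMG day 3. Days did not overlap for 2.04% of all genes. Against the control, *Col7a1* was 3.09-fold lower in d-SMG on day 3 (log2 -1.63, -1.76 to -1.49), at log2 0.12 on day 7, and 2.42-fold higher on day 14 (log2 1.27, 1.21 to 1.34). In s-GAG the log2 ratios were 0.64, 0.09, and 1.42, and in Alg 0.43, 0.69, and 0.39. *Col17a1*, the hemidesmosomal collagen of basal keratinocytes, was at 141, 132 and 236 CPM in the control, 5.71, 223 and 406 in d-SMG, 331, 439 and 152 in s-GAG, and 201, 405 and 333 in Alg. In d-SMG it was 24.7-fold lower than in the control on day 3 (log2 -4.62, -4.98 to -4.29) and higher on day 7 and 14 (log2 0.75 and 0.78). The keratinocyte markers in the d-SMG libraries summed to 52.2, 9975, and 22397 CPM, and in the control to 6029, 5061, and 13768 CPM. Their part in these differences was not tested. Over the days *Col17a1* differed from the control by -0.03 ± 1.004 (SE, adjusted p = 1) in d-SMG, 0.98 ± 0.98 (SE, adjusted p = 0.714) in s-GAG, and 0.83 ± 0.96 (SE, adjusted p = 1) in Alg.

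Of the FACIT collagens on the fibril surface, *Col12a1* had the largest ratio of day 7 to day 3 among the collagen genes with at least 10 reads in the control. *Col12a1*, which bridges fibrils in tissue under tension, was at 37.2, 3383 and 225 CPM in the control, 128, 957 and 185 in d-SMG, 257, 221 and 53.1 in s-GAG, and 123, 437 and 207 in Alg. In the control the log2 ratio of day 7 to day 3 was 6.50 and that of day 14 to day 7 was -3.91, and day 7 was also the highest day in d-SMG and Alg. The edgeR log2 difference was 2.50 ± 1.02 (SE, adjusted p = 0.999) for day 7 against day 3, and -2.55 ± 0.92 (SE, adjusted p = 0.904) for day 14 against day 7. The 3 treatments were above the control on day 3 (log2 1.78, 2.79, and 1.72 in d-SMG, s-GAG, and Alg) and below it on day 7 (log2 -1.82, -3.93, and -2.95). *Col14a1*, a related fibril-associated chain, was at 73.9, 369.7 and 202 CPM in the control, 90.6, 264 and 82.4 in d-SMG, 183, 109 and 85 in s-GAG, and 114, 73.3 and 143 in Alg. *Col16a1*, found at the border of fibrils and basement membranes, was at 169, 1638 and 932 CPM in the control, 93.2, 894 and 555 in d-SMG, 613, 481 and 599 in s-GAG, and 332, 483 and 424 in Alg. *Col16a1* was lower than the control in d-SMG on each day, with log2 ratios of -0.86, -0.87, and -0.75, and its edgeR log2 difference of day 7 against day 3 was 1.54 ± 0.65 (SE, adjusted p = 0.999). *Col19a1*, a scarce FACIT chain also known from muscle, was at 16.9, 25.9 and 145 CPM in the control, 48.5, 10.2 and 4.28 in d-SMG, 7.85, 46 and 1.7 in s-GAG, and 70.8, 20 and 10.3 in Alg. Its highest library was control day 14, and every treatment was below it on that day, with log2 ratios of -5.08, -6.41, and -3.82 in d-SMG, s-GAG, and Alg. *Col22a1*, a collagen of tissue junctions, was at 4.7, 12.4 and 4.25 CPM in the control, 9.25, 3.18 and 4.78 in d-SMG, 9.69, 6.03 and 3.75 in s-GAG, and 5.93, 8.4 and 8.14 in Alg. In d-SMG it was 3.91-fold lower than in the control on day 7. *Col20a1* had 12 to 91 reads and ranged over 0.552 to 5.22 CPM.

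Of the basement membrane multiplexins, *Col18a1*, the source of endostatin, was at 304, 671 and 150.3 CPM in the control, 297, 634 and 281 in d-SMG, 303, 289 and 135 in s-GAG, and 394, 253 and 459 in Alg. *Col15a1*, its close relative, was at 161, 836 and 397 CPM in the control, 154, 472 and 219.8 in d-SMG, 307, 155 and 119.5 in s-GAG, and 236, 214 and 358 in Alg. The log2 ratios of *Col18a1* to the control in Alg were 0.38, -1.41, and 1.61, beside 0.73, -1.86, and 1.70 for *Col4a1*. Among the transmembrane collagens, *Col13a1* was at 22.4, 35.6 and 46 CPM in the control, 18.3, 27.1 and 97.5 in d-SMG, 64, 53.3 and 85.7 in s-GAG, and 56.1, 48.3 and 50.1 in Alg. Each s-GAG and Alg library lay above every control library (edgeR log2 difference 0.995 ± 0.45 SE, adjusted p = 0.542 for s-GAG and 0.68 ± 0.45 SE, adjusted p = 1 for Alg). *Col23a1* was at 8.36, 14.9 and 19.4 CPM in the control, 2.49, 13.9 and 27.2 in d-SMG, 15.1, 17.1 and 6.48 in s-GAG, and 10.1, 22 and 13.3 in Alg. Like *Col17a1* it was lowest in d-SMG day 3, 3.35-fold below the control. The hexagonal network chain *Col8a1*, found under endothelium and in vessel walls, was at 9.78, 27.5 and 8.69 CPM in the control, 10.1, 10.8 and 7.49 in d-SMG, 14.2, 5.75 and 0.614 in s-GAG, and 9.11, 3.93 and 10.5 in Alg. Its partner *Col8a2* was at 3.15, 19.1 and 12.1 CPM in the control, 1.21, 11.3 and 12.8 in d-SMG, 14.3, 10.2 and 9.34 in s-GAG, and 10.7, 10.8 and 11.2 in Alg. The low value of *Col8a1* in s-GAG day 14 rests on 9 reads. *Col28a1*, a collagen of peripheral nerve, was at 22.3, 3.07 and 17.1 CPM in the control, 8.93, 7.64 and 8.81 in d-SMG, 8.03, 11.2 and 4.98 in s-GAG, and 24.6, 22.3 and 8.7 in Alg. Its lowest library was control day 7, where most other collagens were highest. The 6 Schwann cell markers summed to 26.3 CPM there and to 43.6 to 179 elsewhere, and their part in this value was not tested. *Col26a1*, a minor chain, had reads of 18, 2 and 7 in the control, 5, 1 and 1 in d-SMG, 12, 9 and 27 in s-GAG, and 12, 9 and 6 in Alg.

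Each treatment was then set against the control of the same day, as a description of the libraries, counting the genes whose reads in both libraries together came to 10 or more. In d-SMG on day 3, 9 of 41 collagen genes were at least 2-fold higher and 9 at least 2-fold lower (9.47% and 13.5% of all genes), with a median log2 ratio of -0.03. On day 7, 4 were higher and 12 lower of 40 (6.76% and 6.38% of all genes), with a median of -0.59, and on day 14, 3 were higher and 13 lower of 41 (12.6% and 16.1% of all genes), with a median of -0.69. The median over all genes lay between -0.05 and 0.05 in the 9 comparisons of a treatment with the control. Scaled by library size in place of TMM, which moved the median gene by -0.43 and 0.36 on day 3 and 7, the d-SMG counts were 7 higher and 11 lower on day 3, and 6 higher and 5 lower on day 7. By class, 4 of 10 fibrillar genes were at least 2-fold higher and 0 lower on day 3 (median log2 0.38, and -0.04 with library size), and 0 higher and 6 lower on day 7 (median -1.07). The day 7 fibrillar count depends on the scaling. With library size only 5 collagen genes of any class were at least 2-fold lower that day, so these 6 did not all stay past 2-fold. All 4 transmembrane genes were below the control on day 3 (median -1.02), and 3 of 4 above it on day 14 (median 0.64). The day 3 count includes *Col25a1*, which was nearly level with the control and whose few reads give no direction. All 6 type VI genes were below the control on day 14 (median -0.97).

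In s-GAG on day 3, 22 of 42 collagen genes were at least 2-fold higher and 2 at least 2-fold lower (14.6% and 10.9% of all genes), with a median log2 ratio of 1.09. On day 7, 5 were higher and 24 lower of 42 (11.9% and 12.5% of all genes), with a median of -1.21, and on day 14, 3 were higher and 30 lower of 42 (27.8% and 30% of all genes), with a median of -1.76. The fibrillar genes had medians of 1.38, -2.76, and -1.96 on day 3, 7, and 14, and the type VI genes of 1.80, -1.32, and -2.52. The median of the type IV genes was above the control on both day 3 and day 7, at 0.46, 0.37, and -2.44. The day 14 values rest on the library that stood apart. There, 11 of 18 skeletal muscle markers were at least 2-fold higher than the control and 4 at least 2-fold lower. *Tnnc2* was at 39964.8 CPM beside 7725.71 in control day 14, and *Neb* at 182.499 beside 9509.72. The keratinocyte markers also went in both directions. *Krt14* was at 24620.6 CPM beside 2413.04, and *Krt17* at 7747.57 beside 628.149. *Dsp* was at 330.57 beside 3076.54, and *Krt10* at 127.347 beside 2333.01. The part of this divergence, or of transcript length, in the collagen values was not tested.

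In Alg on day 3, 13 of 42 collagen genes were at least 2-fold higher and 0 at least 2-fold lower (11.5% and 8.73% of all genes), with a median log2 ratio of 0.71. On day 7, 5 were higher and 21 lower of 41 (12.5% and 11.9% of all genes), with a median of -1.22, and on day 14, 5 were higher and 10 lower of 42 (9.1% and 12.2% of all genes), with a median of -0.17. The fibrillar medians were 0.69, -2.09, and -0.75 on day 3, 7, and 14. The day 7 comparisons of all treatments share the control day 7 library, in which most collagens had their highest level.

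**Figure D4:**
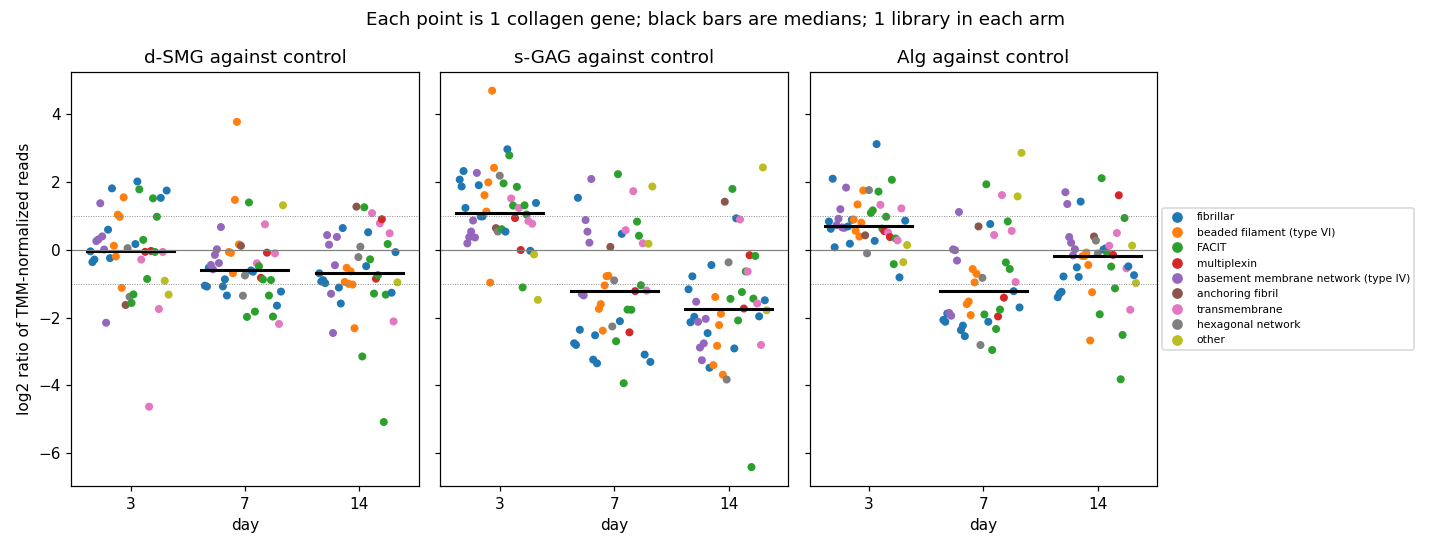
Log2 ratio of the collagen genes to the control library of the same day (TMM-scaled CPM), 1 point for each gene, by treatment and day. The medians of s-GAG were 1.09, -1.21, and -1.76, and those of d-SMG -0.03, -0.59, and -0.69, on day 3, 7, and 14.

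Within a treatment, the days differed as follows. From day 3 to day 7, 28 of 41 were at least 2-fold higher and 3 lower (median log2 2.13, background 13.8% and 12.3%) in the control, and 25 of 40 were at least 2-fold higher and 4 lower (median log2 1.502, background 19.3% and 14.4%) in d-SMG. In s-GAG 2 of 42 were at least 2-fold higher and 9 lower (median log2 -0.37, background 4.21% and 6.94%), and in Alg 8 of 42 were at least 2-fold higher and 2 lower (median log2 0.02, background 7.47% and 6.35%). All 10 fibrillar genes with enough reads were at least 2-fold higher on day 7 in the control (median log2 3.00). From day 7 to day 14, 6 of 41 were at least 2-fold higher and 15 lower (median log2 -0.55, background 12.6% and 9.53%) in the control, and 3 of 40 were at least 2-fold higher and 21 lower (median log2 -1.11, background 10.3% and 10.6%) in d-SMG. In s-GAG 3 of 42 were at least 2-fold higher and 23 lower (median log2 -1.09, background 23.8% and 24%), and in Alg 6 of 41 were at least 2-fold higher and 8 lower (median log2 0.02, background 10.2% and 11.4%). With scaling by library size the Alg median from day 3 to day 7 was -0.20, and the Alg counts were 4 higher and 4 lower from day 3 to day 7, and 9 higher and 7 lower from day 7 to day 14. Over the treatments the median log2 difference of the 42 genes was 0.74 for day 7 against day 3, 0.01 for day 14 against day 3, and -0.52 for day 14 against day 7, beside 0.00, 0.01, and 0.01 over all genes.

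The genes that make and handle collagen were described from 5 lists. None of their members was called by edgeR in any of the 6 comparisons. Of the 20 tested genes for prolyl and lysyl modification and chaperones, which hydroxylate and fold the chains in the endoplasmic reticulum, 20 had a higher estimate on day 7 than on day 3, as had 8017 of all 16110 genes (median log2 0.34, 0 at an unadjusted p under 0.05). Against the control their median log2 ratios on day 3, 7, and 14 were 0.14, -0.63, and -0.17 in d-SMG, 0.10, -1.496, and -0.61 in s-GAG, and -0.01, -1.13, and 0.07 in Alg. For propeptide cleavage and crosslinking (11 genes, such as the lysyl oxidases) the medians were -0.18, -0.39, and -0.32 in d-SMG, 0.31, -1.30, and -1.71 in s-GAG, and 0.10, -1.47, and -0.34 in Alg. On day 7, 15 of 20 modification genes and 8 of 11 crosslinking genes were at least 2-fold lower than the control in s-GAG (12.5% of all genes), and 12 and 8 in Alg (11.9% of all genes). The 9 collagenase and breakdown genes had medians of -1.18, -0.25, and -0.60 in d-SMG, -0.06, -1.30, and -1.76 in s-GAG, and -0.25, -1.09, and 0.22 in Alg, and 6 of 9 were at least 2-fold lower in d-SMG day 3 (13.5% of all genes). Collagen receptors had medians of 0.29, -0.38, and 0.01 in d-SMG, 0.65, -0.39, and -1.27 in s-GAG, and 0.39, -0.63, and 0.12 in Alg. For collagen-binding matrix proteins such as decorin they were -0.41, -0.03, and -0.38 in d-SMG, 0.33, -1.15, and -0.82 in s-GAG, and 0.11, -1.13, and -0.71 in Alg. Scaled by library size, the median changed sign in d-SMG for modification genes on day 3 (-0.28) and 14 (0.01), receptors on day 3 (-0.14), and breakdown (0.11) and binding genes (0.33) on day 7. It also changed sign for breakdown genes in s-GAG (0.08) and modification genes in Alg (0.13) on day 3.

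Several ratios between collagen chains in s-GAG day 14 lay outside the range of the other libraries. The FPKM ratio of *Col1a1* to *Col1a2* was 2.48 in s-GAG day 14 and 1.17 to 1.49 in the other 11 libraries. For the type IV pair, *Col4a1* to *Col4a2* was 2.96 in s-GAG day 14 and 1.97 to 2.58 in the other 11 libraries. The ratio of *Col6a1* to *Col6a2* was 0.437 in s-GAG day 14 and 1.1 to 1.76 in the other 11 libraries, and that of *Col6a3* to *Col6a2* was 0.0839 in s-GAG day 14 and 0.143 to 0.45 in the other 11 libraries. In type VIII, *Col8a1* to *Col8a2* was 0.0938 in s-GAG day 14 and 0.508 to 12 in the other 11 libraries, the highest being d-SMG day 3, with 15 reads on *Col8a2*. The ratio of *Col3a1* to *Col1a1*, which compares transcripts of types III and I, was 0.867 in s-GAG day 14 and 1.25 to 2.87 in the other 11 libraries. It went from 2.87 on day 3 to 1.48 and 1.52 in the control and from 2.42 to 2.14 and 1.25 in d-SMG. In s-GAG it went from 1.61 to 1.95 and 0.867, and in Alg from 1.69 to 1.69 and 2.33. Against *Col1a2*, the other type I chain, s-GAG day 14 was not set apart. The ratio of *Col3a1* to *Col1a2* was 2.15 there and 1.86 to 3.6 in the other 11 libraries. Over the days in s-GAG this second ratio went from 2.21 to 2.71 and 2.15. The low *Col3a1* to *Col1a1* ratio therefore depends on which type I chain is used. Ratios that did not set s-GAG day 14 apart included *Col6a3* to *Col6a1*, which was 0.192 in s-GAG day 14 and 0.124 to 0.278 in the other 11 libraries, and *Col4a3* to *Col4a4*, which was 0.432 in s-GAG day 14 and 0.338 to 0.899 in the other 11 libraries.

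**Figure D5:**
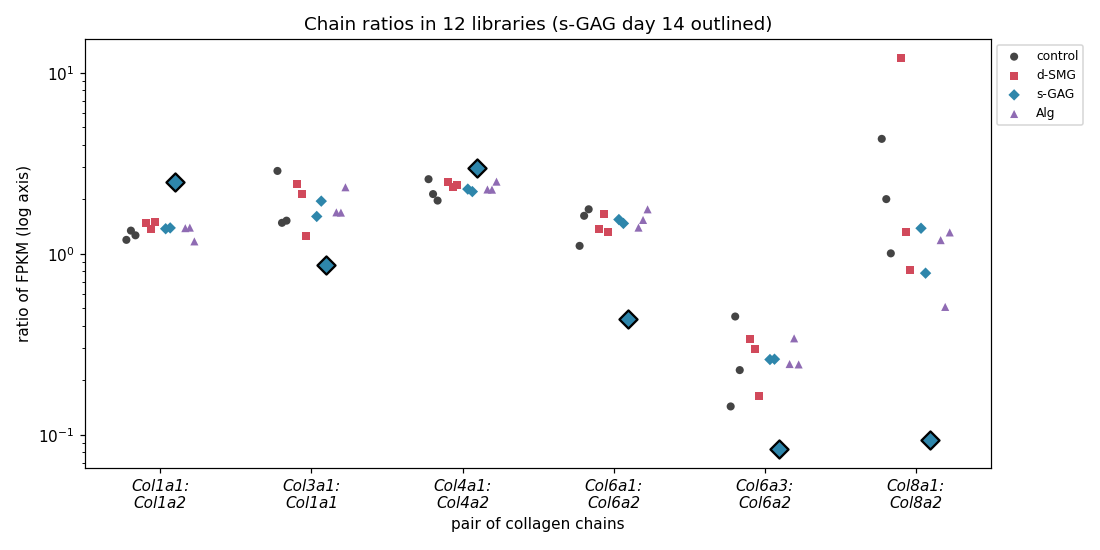
FPKM ratio between collagen chains (log axis) in the 12 libraries, 1 point for each library, with s-GAG day 14 outlined. Its *Col6a1* to *Col6a2* ratio of 0.437 lies below the 1.1 to 1.76 of the other 11 libraries.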

How the data were processed

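RNA of wound tissue was sequenced after rRNA depletion, in stranded libraries. The authors deposited read counts per gene without normalization, and FPKM scaled by gene length and library total by the authors. The submitters' processing notes name bcl2fastq, FastQC, TopHat2, and edgeR, and the counting tool, its strand setting, its treatment of reads shared between genes, and the build are not given in the sources used here. Each deposited file also held 1 column of values that matched no described sample and was not used.

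Counts were TMM-scaled. Genes kept by filterByExpr were tested with edgeR 4.0.16 (glmQLFit, glmQLFTest, R 4.3.3) with treatment and day as terms over all 12 libraries (6 residual degrees of freedom), two-sided, with Benjamini-Hochberg adjustment at 0.05. The p-values measure only the spread between these libraries. The edgeR exact test, which needs a dispersion set by hand for 1 library against 1, was not used. For 2 libraries, genes with at least 10 reads were given as log2 ratios with exact 95% intervals, and past 2-fold was the limit. DESeq2 1.42.0 and limma 3.58.1 (on log2 FPKM) were alternatives. The code was tested on simulated data. The genes, classes, and lists were chosen with earlier results of these data known. Genes were named if they were among the 3 highest in mean FPKM of a structural class, the 3 largest rises or falls in d-SMG on a day, or named by the study. Promoter windows came from RefSeq (GRCr8).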

Additional observations from a re-analysis of the deposited data

Results flagged for a closer look

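Some collagen genes were at least 2-fold apart from the control in opposite directions on different days of the same treatment. With 1 library for each treatment and day, none of these differences between days was tested, and the day comparisons share no libraries. Each count is over the collagen genes with at least 10 reads in both comparisons and stands beside the share of all such genes. In d-SMG, 8 of 40 genes had opposite directions on day 3 and day 7 (5.52% of all genes), namely *Col5a3*, *Col12a1*, *Col19a1*, *Col24a1*, and *Col27a1* (higher on day 3, lower on day 7), and *Col6a5*, *Col9a3*, and *Col28a1* (lower on day 3, higher on day 7). Between day 3 and day 14 there were 7 of 40 (7.64% of all genes), namely *Col4a3*, *Col6a3*, *Col6a6*, *Col19a1*, and *Col24a1* (higher on day 3, lower on day 14), and *Col7a1* and *Col9a3* (lower on day 3, higher on day 14), and between day 7 and day 14 there was 1 of 40 (2.04% of all genes), *Col6a5* (higher on day 7, lower on day 14). The d-SMG day 3 library held the least keratinocyte and the most skeletal muscle RNA, and the part of that in these counts was not tested.

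In s-GAG, 13 of 42 genes had opposite directions on day 3 and day 7 (3.19% of all genes), namely *Col1a1*, *Col1a2*, *Col3a1*, *Col5a1*, *Col6a1*, *Col6a2*, *Col6a3*, *Col12a1*, *Col14a1*, *Col16a1*, *Col22a1*, and *Col27a1* (higher on day 3, lower on day 7), and *Col28a1* (lower on day 3, higher on day 7). Between day 3 and day 14 there were 14 of 42 (8.29% of all genes), namely *Col1a1*, *Col1a2*, *Col3a1*, *Col4a6*, *Col5a1*, *Col6a1*, *Col6a2*, *Col6a3*, *Col6a5*, *Col6a6*, *Col12a1*, *Col14a1*, *Col20a1*, and *Col27a1* (higher on day 3, lower on day 14). Between day 7 and day 14 there were 2 of 42 (4.09% of all genes), namely *Col4a6* and *Col28a1* (higher on day 7, lower on day 14). The day 14 counts rest on the library with unusual chain ratios.

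In Alg, 3 of 41 genes had opposite directions on day 3 and day 7 (3.48% of all genes), namely *Col6a3*, *Col9a2*, and *Col12a1* (higher on day 3, lower on day 7), 5 of 42 on day 3 and day 14 (2.1% of all genes), namely *Col2a1*, *Col6a6*, *Col9a2*, *Col19a1*, and *Col25a1* (higher on day 3, lower on day 14), and 4 of 41 on day 7 and day 14 (4.92% of all genes), namely *Col4a1*, *Col4a2*, *Col5a3*, and *Col18a1* (lower on day 7, higher on day 14).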

How the results depend on the processing

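No collagen gene was called over the libraries by edgeR with RLE size factors, library size, no filter on low counts, a minimum of 50 reads, only the libraries compared, or limma on log2 FPKM (pseudocount 1 or 0.1). The day or treatment is the replicate block of the model, and without the block the count was 0 in each of the 6 comparisons. Leaving out each day or treatment in turn gave 0 to 0 calls in each comparison. The calls were 1 with DESeq2 for s-GAG (*Col9a3*) and 1 for day 14 against day 7 (*Col24a1*). For s-GAG, *Col9a3* alone was called without d-SMG day 3 (1 of 66 genes called in all), without that library and s-GAG day 14 (1 of 177), and not without s-GAG day 14 only, and these alternatives were chosen after seeing the data. Counts past 2-fold fell with FPKM and a pseudocount of 1, which shrinks the ratios of low genes, to 6 (from 18), 5 (from 16), and 9 (from 16) in d-SMG on day 3, 7, and 14, and to 5 (from 13) in Alg on day 3. With that pseudocount the split of higher and lower genes was 2 and 4, 2 and 3, and 3 and 6 in d-SMG, and 5 and 5 in Alg on day 14, and with 0.1 it was 5 and 10, 5 and 7, and 4 and 9 in d-SMG. The other 66 counts stayed within 1.5 times, and no collagen gene past 2-fold changed sign. Of the ratios of single genes between 2 libraries under an alternative, 219 moved beyond their counting interval and 69 stayed within it. Library size in place of TMM shifted the median gene by -0.45 to 0.77 (log2) over the comparisons. With 1 library a treatment and day, small counts of *Col2a1*, *Col9a2*, *Col25a1*, and *Col26a1* limit any ratio.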
